A study of Mus musculus with 2 samples.

Results

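The serpins are the largest family of serine protease inhibitors in vertebrates. A serpin offers an exposed loop as bait, and the protease that cuts it is trapped as the loop folds into the body of the inhibitor. Hepatocytes secrete most of the plasma serpins, which hold elastase, thrombin, plasmin and complement proteases in check, while the clade B serpins stay inside cells and some members carry hormones or chaperone collagen instead of inhibiting proteases. Here the family is every gene whose platform symbol starts with Serpin and that had a probe set with a single symbol. There were 30 such genes among the 12393 genes named on the array, read by 39 probe sets. A further 3 serpin probe sets carried several symbols and are given apart. Where a gene had several probe sets, the one with the highest mean log2 signal over both arrays was used.

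Liver RNA came from male apolipoprotein E-deficient mice of mixed C57BL/6J/OLA129 background, with an age of 2 months in the labels for both groups. The control pool drank 1% glycerol with a chow diet over 10 weeks, and the squalene pool drank glycerol that also delivered squalene, a precursor of cholesterol, at a daily 1 g per kg over the same 10 weeks. Both pools carried the apolipoprotein E deficiency, so every value below is from mice that clear remnant lipoproteins poorly. Each pool was read on 1 Affymetrix array, and the sources used here give no number of animals per pool. There are therefore no replicates, no test between groups can be made, and each ratio below compares these 2 pools.

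The median signal was 39.9 on the control array and 41.3 on the squalene array, over probe sets that are not array controls. A gene is called well read when its mean log2 signal lies at or above the mean of the 2 log2 medians, which is a signal of 40.6. The only spread that these arrays hold is the one between probe sets of the same gene. For the log2 ratio it had an SD of 1.66 below that signal, 0.36 from there to a signal of 1000, and 0.13 at 1000 or more. This SD compares probe sets on the same 2 arrays, so it holds no variation between animals, pools or repeat arrays. The 18 probe sets of hybridization spike-ins gave log2 ratios that were all below 0 and had a median of -0.26. Scaling to them would raise every ratio by that amount, and would put 1629 of the 6781 well read genes above 0.5 and 194 below -0.5, against 608 and 541 as deposited. Apoe read 141.0 and 130.6 on 1 probe set, which checks nothing about the deletion, since its place relative to the deleted part is unknown here. Hepatocyte markers were read well in 9 of the 9 genes on the array, with a median log2 ratio of 0.02 and a range of -0.21 to 0.45.

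No well read plasma serpin had a log2 ratio above 0.5 or below -0.5, as deposited. Of the 30 serpin genes, 13 were well read, and all 13 had both signals at or above the array medians. None of these 13 lay above a log2 ratio of 0.5, where 8.97% of all well read genes did, and 1, Serpinb9, lay below -0.5, where 7.98% did. Their median log2 ratio was -0.11, beside 0.01 over all well read genes, and 9 of the 13 lay below 0, beside 49.1% of well read genes. Among the 948 genes with a mean signal of 1000 or more, 60.0% lay below 0 and the median was -0.05, and the 11 serpins in that band had a median of -0.08 with 7 below 0. In that band 2.11% of genes lay above 0.5 and 3.27% below -0.5, and 0 of the 11 serpins did either. The lean below 0 depended on the scaling: 6 of the 13 lay below 0 after quantile normalization (median 0.01), 8 after loess (median -0.01) and 3 after scaling to the spike-ins (median 0.15), which also put Serpina6 alone above 0.5.

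**Figure D1:**
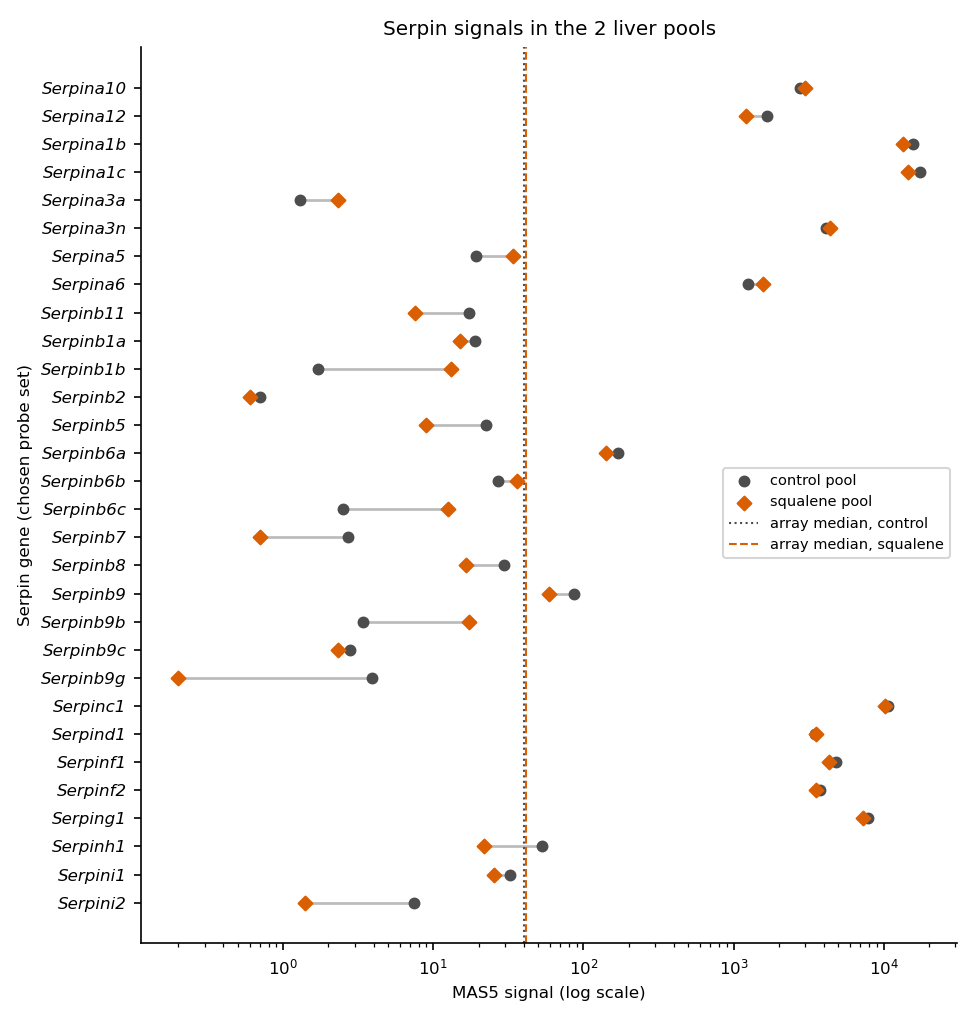
MAS5 signal (log axis) of the 30 serpin genes in the control pool (circles) and the squalene pool (diamonds), 1 array each, with the 2 array medians as vertical lines. The 13 well read genes lie to the right of both medians with nearly overlapping points, and the longest connecting lines belong to genes left of both medians, such as Serpinb9g at 3.9 and 0.2.

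Alpha-1-antitrypsin, the main inhibitor of neutrophil elastase in plasma, is encoded in the mouse by a group of near-identical genes, Serpina1a to Serpina1e. Their upstream sequences are printed to show how alike these genes are before their starts, and the transcripts themselves were not compared. The 120 bases before each annotated start are given from RefSeq (GRCm38.p6), 5′ to 3′ on the minus strand on which all 5 genes lie. Capitals mark the letters GTTAAT, the core of the motif bound by the liver factor HNF1. The windows are chr12:103863620-103863739 for Serpina1a, chr12:103738190-103738309 for Serpina1b, chr12:103904951-103905070 for Serpina1c, chr12:103773634-103773753 for Serpina1d and chr12:103956898-103957017 for Serpina1e.
Serpina1a: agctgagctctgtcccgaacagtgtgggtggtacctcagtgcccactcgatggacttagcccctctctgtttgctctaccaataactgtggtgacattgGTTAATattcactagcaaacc
Serpina1b: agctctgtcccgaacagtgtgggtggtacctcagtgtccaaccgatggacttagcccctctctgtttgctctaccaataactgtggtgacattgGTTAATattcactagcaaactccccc
Serpina1c: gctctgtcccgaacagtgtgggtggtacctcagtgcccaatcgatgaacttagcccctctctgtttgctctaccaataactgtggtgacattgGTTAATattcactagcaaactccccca
Serpina1d: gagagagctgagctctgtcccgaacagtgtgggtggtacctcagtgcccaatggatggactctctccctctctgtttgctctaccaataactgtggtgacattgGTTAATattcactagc
Serpina1e: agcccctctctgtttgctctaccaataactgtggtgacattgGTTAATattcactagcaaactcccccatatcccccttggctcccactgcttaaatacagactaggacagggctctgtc

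Over the 250 bases before the start, the 10 pairs of these promoters were 91.4% to 97.0% identical where they aligned. A stretch of 55 bases was the same in all 5, and it holds the capitalised letters. They begin 21 bases before the start in Serpina1a, 26 in Serpina1b, 27 in Serpina1c and 16 in Serpina1d. In Serpina1e they begin 78 bases before it, since the annotated start of that gene lies further downstream of the shared stretch. GTTAAT on either strand occurs in 6.43% of all 32851 promoter windows of this length. Among the serpin genes it was found for 4 of the 26 that had a window (Serpina1b, Serpina1c, Serpinb8 and Serpini2), of which the first pair were well read. The letters TTNNGCAAT, the motif of C/EBP factors, were found for 1 of the 26 (Serpinb2), with a share of 1.93% over all windows. TTCNNNGAA, the motif of STAT factors, was found for 3 (Serpinb2, Serpinb6a and Serpinb9c), with a share of 7.02%. Both strands were searched for each motif, matches to different motifs may overlap, and a match describes letters only. Serpina10, Serpina6, Serpinb1a and Serping1 had no window in the table.

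**Figure D2:**
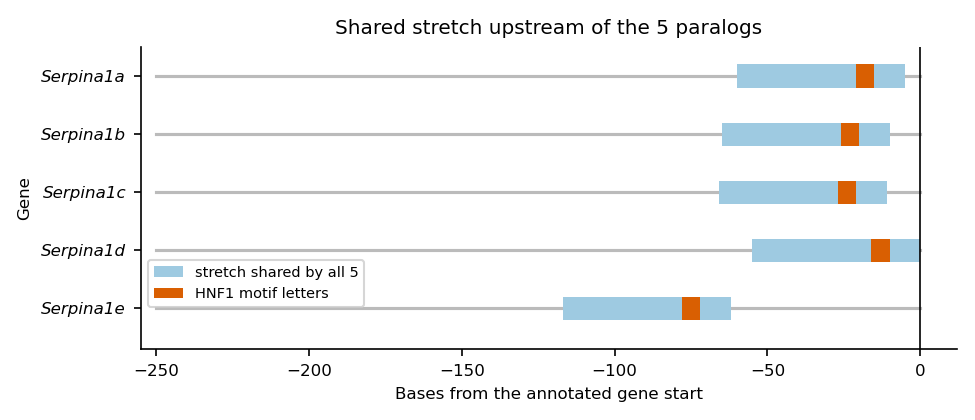
Position, in bases from the annotated gene start, of the 55-base stretch shared by Serpina1a to Serpina1e (light blue) and of the HNF1 motif letters within it (orange). The stretch ends close to the start in Serpina1a to Serpina1d and lies 63 to 117 bases before it in Serpina1e.

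As deposited, the signals of these paralogs were a little lower in the squalene pool on all 5 probe sets that read them, and after scaling to the spike-ins 4 of the 5 lay above 0. Serpina1c read 17451.7 in the control pool and 14493.2 with squalene, a log2 ratio of -0.27, or 1.20-fold lower. Serpina1b read 15634.2 and 13412.2 (-0.22) on the chosen probe set and 14618.7 and 13358.6 (-0.13) on the other. Both Serpina1b probe sets are of the kind whose probes can also match related transcripts. The probe set shared by Serpina1d and Serpina1a read 16695.8 and 14751.7 (-0.18), and the one shared by Serpina1e, Serpina1c and Serpina1b read 4800.3 and 4463.6 (-0.10). These 5 readings are not independent, since the annotation assigns 2 of the probe sets to several of these paralogs. Among the genes with a mean signal of 1000 or more, 13.7% lay at or below the ratio of Serpina1c and 18.5% at or below that of Serpina1b. After quantile normalization Serpina1c stood at -0.11 and Serpina1b at -0.08, and scaling to the spike-ins put them at -0.01 and 0.04.

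The rest of clade A went to either side of 0. Serpina12, or vaspin, a secreted serpin known from adipose tissue, read 1666.2 in the control pool and 1208.9 with squalene. That is 1.38-fold lower (log2 ratio -0.46), the lowest ratio among the 11 serpins of that signal band. In the band, 36 of 948 genes (3.80%) lay as low or lower. Its other probe set read 7.0 and 4.1 (-0.77), below the median on both arrays. Serpina6, which encodes the corticosteroid-binding globulin that carries glucocorticoids in blood, read 1258.3 in the control pool and 1562.2 with squalene. It was 1.24-fold higher (0.31), the highest ratio among the well read serpins, and 51 genes of the band (5.38%) lay as high or higher. Both ratios are larger than the SD of 0.13 between probe sets of the same gene in this band, but each rests on 1 well read probe set. Serpina12 stayed below 0 and Serpina6 above 0 in all 12 alternatives, with ranges of -0.62 to -0.20 and 0.28 to 0.57. Most of the 12 could not move them, since filters, the floor and the pseudocount leave bright signals as they are. Serpina6 moved only with centring, quantile normalization, loess and spike-in scaling, and Serpina12 with these and with the mean of its probe sets.

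Serpina10, the inhibitor that acts with protein Z against factor Xa, read 2794.0 in the control pool and 2994.1 with squalene, a log2 ratio of 0.10. Serpina3n, an acute phase member of the antichymotrypsin group, read 4126.3 and 4371.1 (0.08). Both differences are within the SD between probe sets. Acute phase proteins outside the family stood likewise as a group, with a median of 0.01 over 21 well read genes, 1 above 0.5 and 2 below -0.5. Those were Mt2, a metallothionein, at 2990.9 and 4361.8 (0.54), Saa3, a serum amyloid A of macrophages and other cells, at 724.8 and 492.6 (-0.56), and Socs3, a feedback inhibitor of cytokine signalling, at 161.3 and 88.5 (-0.87). Serpina5, the protein C inhibitor, read 19.1 and 33.9, and Serpina3a 1.3 and 2.3, so both lay below the median on both arrays. In the RefSeq table the 8 clade A members belong to a single run of neighbouring genes, in which all 23 protein-coding genes from Serpina10 to Serpina3n are serpins. The neighbours Serpina10 and Serpina6 at 1 end lay above 0, the next well read members Serpina1b, Serpina1c and Serpina12 below it, and Serpina3n at the other end above it.

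Serpinc1, Serpind1, Serpinf2 and Serping1, the inhibitors of coagulation, fibrinolysis and complement outside clade A, had log2 ratios between -0.11 and 0.04. Serpinc1, or antithrombin, the principal inhibitor of thrombin and factor Xa, read 10755.1 in the control pool and 10219.6 with squalene (log2 ratio -0.07). Serpind1, or heparin cofactor II, a thrombin inhibitor activated by glycosaminoglycans, read 3464.9 and 3557.9 (0.04). Serpinf2, or alpha-2-antiplasmin, which blocks plasmin, read 3768.4 and 3568.9 (-0.08). All of these values lie within the SD of 0.13, as does Serping1. Serping1 encodes the C1 inhibitor, which restrains the first complement proteases and plasma kallikrein, and read 7836.7 and 7274.3 (-0.11). The sign of Serpinc1 turned after quantile normalization and loess, those of Serpinf2 and Serping1 after quantile normalization, and those of these 3 genes after scaling to the spike-ins.

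Well read proteases of coagulation, fibrinolysis, the contact system and complement also lay close to 0. Their list has 20 genes on the array and also holds membrane proteases such as Hpn, so not all are controlled by these serpins. Of the 20, 16 were well read, and 0 of these lay above 0.5 or below -0.5, with a median of -0.03 and a range of -0.25 to 0.33. The plasminogen activator genes Plat (4.0 and 25.3, 2.66) and Plau (5.1 and 14.2, 1.48) were too dim to place. So were St14 (16.2 and 25.1, 0.63) and Prss8 (39.9 and 28.2, -0.50). Habp2, a plasma protease that binds hyaluronan, read 200.5 and 251.3 (0.33), C1ra, a protease of the first complement component, 932.9 and 783.1 (-0.25), and Hgfac, the activator of hepatocyte growth factor, 851.7 and 746.3 (-0.19). F2, the prothrombin gene, read 7980.2 and 7693.7 (-0.05), and Plg, the plasminogen gene, 12441.3 and 11214.6 (-0.15). Protease inhibitors of other families gave a median of -0.10 over 17 well read genes, with 0 past 0.5 in either direction. Of the 17, 14 lay below 0, beside 49.1% of all well read genes and 60.0% of genes at 1000 or more. Over all 24 on the array, dim ones included, 15 lay below 0 and 9 above. The most distant of the well read ones was Cstb, a cystatin that inhibits lysosomal cathepsins, at 1329.1 and 982.0 (-0.44). Next came Slpi, a secreted leukocyte protease inhibitor, at 89.5 and 113.6 (0.34), and Spint2, a Kunitz-type inhibitor, at 345.5 and 278.6 (-0.31). As deposited, the serpins had a median of -0.11 beside -0.10 for other inhibitors and -0.03 for the well read proteases above. Genes with a mean signal of 1000 or more had a median of -0.05. The serpin median became 0.01 after quantile normalization, -0.01 after loess and 0.15 after scaling to the spike-ins. For the other inhibitors and the proteases the median is given as deposited only.

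Serpinf1 and Serpinh1 belong to the family by sequence but are not protease inhibitors. Serpinf1, or pigment epithelium-derived factor, an anti-angiogenic secreted protein, read 4811.6 in the control pool and 4342.0 with squalene (-0.15), and 2048.7 and 2002.6 (-0.03) on its other probe set. Scaling to the spike-ins turned it to 0.11. Serpinh1, or HSP47, the collagen chaperone of the endoplasmic reticulum, was the only serpin with a signal at or above the median in 1 pool alone. It read 52.6 in the control pool and 21.8 with squalene, a log2 ratio of -1.27, and 25.3 and 12.3 (-1.04) on its other probe set, which lay below the median on both arrays. The chosen probe set of Serpinh1 is of the kind whose probes can also match related transcripts. The mean signal of Serpinh1, 33.9, lay just outside the limit of 40.6, and Serpinb9, at 71.2, was the nearest inside. Below that limit the SD between probe sets was 1.66, so the ratio of Serpinh1 is smaller than that spread. With signals floored at the array medians it stood at -0.35.

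Collagens and stellate cell markers are given beside Serpinh1, since the cells that make collagen also make its chaperone. Of 13 well read genes among its partners in collagen secretion, 2 lay below -0.5 and 0 above 0.5, with a median of -0.13. The 2 were the fibrillar collagen genes Col1a2 (118.1 and 72.2, -0.71) and Col3a1 (140.6 and 86.4, -0.70). Col5a2, also a fibrillar collagen gene, read 241.9 and 329.0 (0.44). Of the basement membrane collagens, Col4a2 read 53.0 and 72.3 (0.45) and Col4a1 125.4 and 101.4 (-0.31). Of 7 well read stellate cell and fibroblast markers among the 10 on the array, 5 lay below -0.5 and 0 above 0.5, with a median of -0.70 and a range of -1.0 to 0.02. Acta2, the smooth muscle actin, read 146.6 and 73.1 (-1.0) and Lum, a matrix proteoglycan, 163.1 and 88.5 (-0.88). Reln, at 525.0 and 531.3 (0.02), and the dim markers Lrat (5.9 and 22.8) and Des (11.9 and 17.0) read higher with squalene. The summed signal of the 10 markers was 3744 in the control pool and 3358 with squalene, and none was at 0. Most of that sum came from Dcn (2540.5 and 2415.0). The part of these markers in the value of Serpinh1 was not tested. In whole liver, fewer cells of a type and less RNA per cell cannot be told apart.

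Most intracellular serpins of clade B were too dim to place. Of 14 members, 2 were well read and 12 had both signals below the array medians. Serpinb6a, an inhibitor of cathepsin G, read 169.2 in the control pool and 141.7 with squalene, a log2 ratio of -0.26, which is within the SD of 0.36 for its band. Serpinb9, the inhibitor with which cytotoxic lymphocytes and other cells protect themselves from granzyme B, read 86.0 and 59.0. That is 1.46-fold lower (-0.54), on 1 probe set, and the 434 well read genes under a signal of 1000 that lay as low or lower make up 7.44% of 5833. Its value ranged from -0.59 to -0.29 over the 12 alternatives, and it lay within 0.5 of 0 only after scaling to the spike-ins. The filters, the floor and the choice of probe set could not change this value.

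Markers of immune cells are given beside Serpinb9. All 12 Kupffer cell and macrophage markers were well read and lay below 0, 8 of them below -0.5, with a median of -0.68 and a range of -1.33 to -0.08. Msr1, a scavenger receptor, read 113.0 and 45.1 (-1.33), Lyz2, a lysozyme of macrophages, 808.8 and 384.2 (-1.07), and Clec4f, a Kupffer cell lectin, 714.6 and 438.8 (-0.70). The summed signal of the 12 was 6964 in the control pool and 4521 with squalene. Of 11 T and NK cell markers, 0 were well read, and their summed signal was 214 and 122. Of the 11, 5 read higher with squalene (Cd3d, Cd3e, Cd8a, Gzmb and Nkg7), and Klrk1 (45.8 and 2.9) and Ccl5 (43.3 and 8.0) made up most of the difference in the sum. Of 9 neutrophil markers only S100a8, a calcium-binding protein of myeloid cells, was well read, at 79.0 and 55.8 (-0.50), and the 9 summed to 243 and 177. Of the 9, 4 dim ones read higher with squalene, Mpo (3.7 and 18.1), Mmp8 (18.1 and 31.4), Mmp9 (9.2 and 21.6) and Csf3r (9.5 and 10.0). No marker of these lists was at 0, and their part in the value of Serpinb9 was not tested. Of 16 proteases of leukocytes and lysosomes, 7 were well read, and 0 of these lay past 0.5 in either direction. All 7 are cathepsins that are not serine proteases. The serine proteases of the list, granzymes among them, had both signals below the array medians, with ratios from -2.42 (Elane) to 2.79 (Gzmk). Ctss, a cathepsin of antigen-presenting cells, read 673.3 and 485.0 (-0.47), Ctsc, which activates granule proteases, 1624.0 and 1236.3 (-0.39), and Ctsl, a broadly expressed lysosomal cathepsin, 4475.5 and 5712.1 (0.35).

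**Figure D3:**
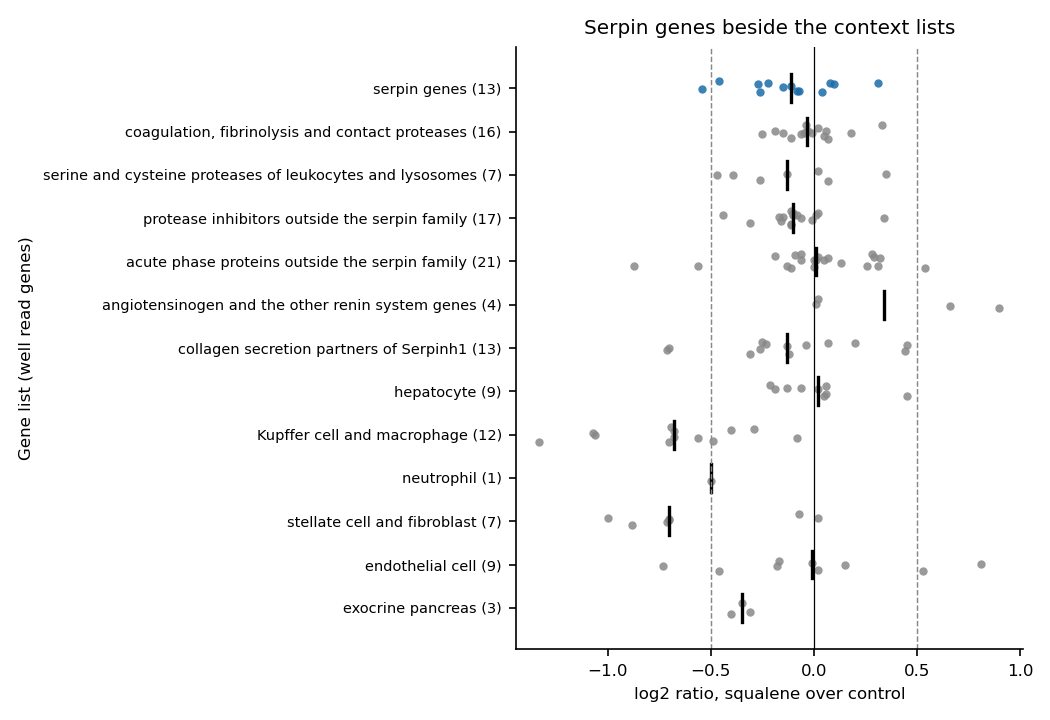
log2 ratio of squalene over control for the 13 well read serpin genes (blue) and the well read genes of each other list (grey, number in brackets), with the list median as a black bar and dashed lines at 0.5 and -0.5. The serpins lie between -0.54 and 0.31, and the medians of the macrophage and stellate cell markers lie at -0.68 and -0.70.

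The ratios that passed the screen of 1.5 named by the submitters all came from signals below the array medians. Over all 30 serpin genes, 3 lay above 1.5 and 3 below -1.5, beside 7.86% and 7.30% of all genes. None of the 6 was well read, and 0.354% of all well read genes lay that far out. Among the 17 serpins below the limit for well read genes, 6 were past 1.5 in either direction, beside 33.1% of all genes that dim. Serpinb1b, a relative of the neutrophil elastase inhibitor, read 1.7 in the control pool and 13.2 with squalene (2.96). Serpinb9b read 3.4 and 17.2 (2.34), and Serpinb6c 2.5 and 12.6 (2.33). Serpinb9g read 3.9 and 0.2 (-4.29), Serpini2, or pancpin, known from the pancreas, 7.4 and 1.4 (-2.40), and Serpinb7, or megsin, 2.7 and 0.7 (-1.95). All 12 of these signals lie below the array medians, and each gene had 1 single-symbol probe set. Exocrine pancreas markers, given beside Serpini2, were well read in 3 of the 7 genes on the array, with a median of -0.35 and none past 0.5 in either direction. The 3 dim markers Cpa1 (4.5 and 26.0), Cpb1 (1.7 and 3.5) and Ctrb1 (3.1 and 6.4) read higher with squalene. Prss2, an anionic trypsinogen, read 63.8 and 48.2 (-0.40) and Cela1, a pancreatic elastase, 528.3 and 424.7 (-0.31). The summed signal of the 7, most of it from Cela1, was 698 in the control pool and 577 with squalene, none was at 0, and their part in the value of Serpini2 was not tested.

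The other dim members lay between -1.32 and 0.83. Serpinb5, or maspin, read 22.4 in the control pool and 9.0 with squalene (-1.32) on its chosen probe set, and Serpinb11 17.3 and 7.6 (-1.19). Serpinb8 read 29.5 and 16.4 (-0.85), Serpinb6b 26.8 and 36.3 (0.44), and Serpini1, or neuroserpin, an inhibitor of tissue plasminogen activator in the brain, 32.3 and 25.2 (-0.36). Serpinb1a, an inhibitor of neutrophil proteases, read 18.9 and 15.0 (-0.33). Serpinb9c read 2.8 and 2.3, and Serpinb2, the plasminogen activator inhibitor of macrophages, 0.7 and 0.6. The probe set shared by Serpinb9h, Serpinb9g, Serpinb9e and Serpinb9f read 26.5 and 19.4 (-0.45). The single-symbol probe set of Serpinb9g, at -4.29, rests on a squalene signal of 0.2, close to the lowest value of that array, which was 0.1. In the RefSeq table the clade B members fall into 2 runs made up of serpins alone, 1 with 5 members and the other with 9. The 5 members of the first run all lay below 0 on their chosen probe sets and all were dim, and both well read members belonged to the second.

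**Figure D4:**
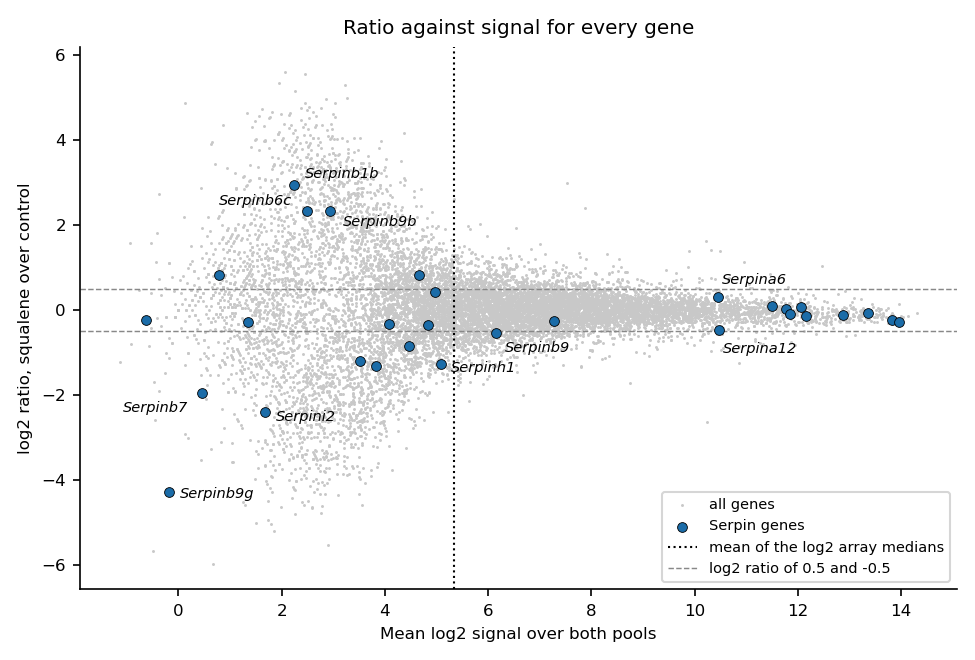
log2 ratio of squalene over control against mean log2 signal for 12393 genes (grey) and the 30 serpin genes (blue), with the limit for well read genes as a dotted line. The serpins right of the line stay between -0.54 and 0.31, and those left of it range from -4.29 to 2.96 within a cloud of genes that is as wide.

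Several probe sets gave a second reading for some of the serpins. Of the 8 genes with more than 1 single-symbol probe set, 6 had the same sign on all of them and 2, Serpinb5 and Serpinb9c, did not. Only Serpina1b and Serpinf1 had all their probe sets well read, and their ratios differed by little, at -0.22 and -0.13 and at -0.15 and -0.03. Serpinb5 read -1.32, 2.01 and 2.05 on 3 dim probe sets. Serpinb1a read -0.33 and -2.62, Serpini1 -0.36 and -2.52, and Serpinb9c -0.28 and 1.25. The remaining 22 genes had 1 single-symbol probe set each, and of these only Serpina1c and Serpinb9g were also read by a probe set with several symbols. The chosen probe sets of Serpina10, Serpinb1a, Serpinb6c and Serpini2 are of a kind whose probes can match more than 1 transcript.

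**Figure D5:**
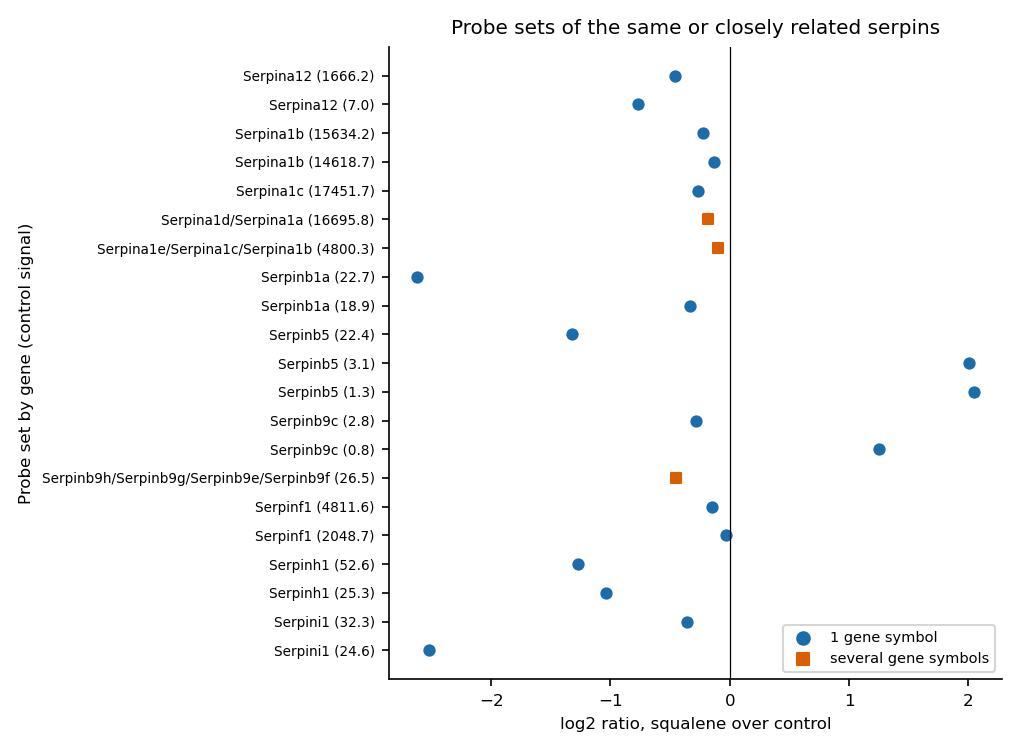
log2 ratio of squalene over control for each probe set of the serpins that had several, of Serpina1c and of the 3 probe sets with several symbols (squares), with the control signal in brackets. Bright probe sets of alpha-1-antitrypsin genes lie between -0.27 and -0.10, while the dim ones of Serpinb5 lie at -1.32, 2.01 and 2.05.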

How the data were processed

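The deposited values are intensities on a linear scale, 1 signal per probe set, made by the authors with MAS5, per the submitters' processing notes. The sources used here give neither its version nor its settings, and detection calls were not used. Both arrays had a 2% trimmed mean of 200.1. Of 22690 probe sets, 64 were array controls, 20380 had 1 gene symbol, 691 several and 1555 none. Symbols came from the platform annotation, and all 30 serpin genes were found unchanged in the RefSeq table (GRCm38.p6) by gene number. The sources used here name no build, so coordinates are given only for promoter windows, with the build of their RefSeq table.

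The log2 ratio of the squalene over the control signal was taken without a pseudocount, on the probe set of each gene with the highest mean log2 signal. Counts used limits of 0.5 and, after the submitters' screen, 1.5. With 1 array per group no test was possible, and the number of arrays limits the precision. The members and the gene lists were chosen with earlier results of these data known. Every serpin with a signal at or above an array median was to be named, with the 5 largest ratios among the rest and up to 3 genes of each other list. The remaining members, and F2 and Plg, were added after their values were seen. So were further genes of the collagen, stellate cell, neutrophil, T and NK cell, pancreas and leukocyte protease lists. Further genes of the coagulation protease, renin system and endothelial lists were also added after their values were seen.

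Alternatives were the mean of the probe sets, plain suffix probe sets, the probe set of smallest ratio, other filters, floored signals, centring, quantile normalization, loess, spike-in scaling, a pseudocount of 3.0 and other limits. Python 3.11.15, numpy 2.4.6, pandas 2.3.3, scipy 1.17.1, biopython 1.88, matplotlib 3.10.9, and limma 3.58.1 in R 4.3.3 were used. The scripts were tested on simulated data.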

Additional observations from a re-analysis of the deposited data

How the results depend on the processing

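The number of well read serpins above 0.5 was 0, and became 5 with no filter and 1 after scaling to the spike-ins. The number below -0.5 was 1, and became 2 with the mean of each gene's probe sets, 2 with at least 1 signal at or above the array median, 8 with no filter, 0 after scaling to the spike-ins and 0 at a limit of 1.0. The family median of -0.11 became 0.01 after quantile normalization, -0.01 after loess and 0.15 after scaling to the spike-ins. Of all serpins 6 lay past 1.5, and this fell to 0 with floored signals and to 3 with the pseudocount. Of the well read ones 0 did, or 6 with no filter. Over the well read genes of the other lists, 5 lay above 0.5 and 17 below -0.5. Macrophage markers made up 8 of the 17 and stellate cell markers 5, and these lists were chosen with earlier results known. The number of well read genes over these lists together is not given, so these counts cannot be set beside the 8.97% and 7.98% of all well read genes. The counts of 5 and 17 became 3 and 11 on plain suffix probe sets and 30 and 32 with no filter. They were 16 and 6 after scaling to the spike-ins, and 0 and 4 at a limit of 1.0. The count below -0.5 fell to 12 when probe sets were averaged, and also to 12 when the least changed reading stood for each gene. With both signals at or above the medians, 3 lay above 0.5. Floored signals put both Serpinb9g and Serpini2 at 0.05, which is the ratio of the 2 medians. The filter and the floor act on dim genes by construction, spike-in scaling adds 1 constant, and for the other settings the cause was not tested. Of 211 single-gene values over 19 named serpins, 190 moved by less than the SD between probe sets, and 11 had the other sign than as deposited. Of these 11, 9 came from well read genes near 0 (Serpinc1, Serpinf2, Serping1, Serpina1b and Serpinf1) and 2 from Serpinb9g and Serpini2. Many of the 190 were fixed in advance, since a filter does not alter a ratio and a choice of probe set cannot alter a gene with 1. For dim genes the SD also lets large shifts pass, as for Serpinh1, at -1.27 as deposited and -0.35 with floored signals. The count of 190 is therefore no measure of stability. No paired analysis was possible because each group is 1 array. Ratios of signals below the medians are limited by their spread of 1.66.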

Other observations

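Angiotensinogen is a serpin by structure whose gene symbol, Agt, does not start with Serpin. Agt, the precursor of the angiotensin peptides, read 3432.1 in the control pool and 3477.2 with squalene (log2 ratio 0.02), on the same side of 0.5 as the plasma serpins. Of the other renin system genes on the array, Ace, which makes angiotensin II, read 56.8 and 106.2 (0.90), and Enpep, an aminopeptidase that trims it, 762.2 and 766.2 (0.01). Of the 4 genes of this list, 2 lay above 0.5 and 0 below -0.5, beside 8.97% and 7.98% of well read genes. Those above 0.5 were Ace and Mme, a membrane endopeptidase, at 33.0 and 52.2 (0.66). The control signal of Mme was below the array median, so Mme passed the limit for well read genes through the squalene pool.

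Endothelial cell markers had a median of -0.01 over 9 well read genes. Of the 9, 2 lay above 0.5 and 1 below -0.5, beside 8.97% and 7.98% of all well read genes. Those above 0.5 were Stab1 and Vwf (33.3 and 58.2, 0.81), and the control signal of Vwf was below the array median. Pecam1, at 38.6 and 13.0 (-1.57), was below the median on both arrays. Clec4g, a lectin of sinusoidal endothelium, read 864.9 and 522.2 (-0.73), Stab1, a scavenger receptor, 105.5 and 152.5 (0.53), and Eng, a co-receptor of TGF-beta signalling, 212.7 and 154.2 (-0.46). Among hepatocyte markers, Tat, a tyrosine aminotransferase induced by glucocorticoids, read 6618.8 and 9063.9 (0.45), Ttr, the transthyretin gene, 16826.9 and 14596.3 (-0.21), and Alb, the albumin gene, 16656.0 and 14625.1 (-0.19).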
